A study of Mus musculus with 6 samples.

Results

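The carbonic anhydrases of the mouse are a family of 16 genes in the deposited table, and 9 of them are described here: *Car2*, *Car3*, *Car4*, *Car7*, *Car8*, *Car10*, *Car11*, *Car12* and *Car14*, among 34745 genes in all. They were chosen by gene symbol, with the measured FPKM values of these libraries already known, and no threshold on those values was given. The differences between groups in the 9 genes are therefore a description, with errors and no p-value computed here. How many of them passed the threshold over all genes is given and supports nothing, and neither do the authors' deposited q-values quoted at the end. Of the 7 family genes outside the list 3 were expressed highly enough to enter the fit, and of the partner genes 16 of 25 in one list and 11 of 11 in another. The libraries are bulk RNA-seq of the cerebral cortex at postnatal day 8. The 3 Pen-2 cKO libraries came from mice with the genotype Pen-2 F/F; hGFAP-Cre, and the 3 Control libraries from Pen-2 F/F mice, so both groups carry the floxed alleles and the cKO group alone carries Cre. Pen-2, encoded by *Psenen*, is a subunit of the membrane protease γ-secretase. The human GFAP promoter that drives Cre is active in radial glia, which give rise to neurons as well as glia. Since Cre and the loss of Pen-2 come together, what each contributes cannot be told apart. The labels do not say that each library came from a separate animal, so the errors measure the spread between these libraries.

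Carbonic anhydrases convert carbon dioxide and water to bicarbonate and a proton, and back, at a zinc ion held by histidines of the active site. In the brain they buffer pH inside cells and in the extracellular space and supply the ions that bicarbonate and proton transporters move. Members differ in where they sit. Some are cytosolic (*Car2*, *Car3*, *Car7*), some are anchored to the outer face of the membrane (*Car4*) or span it with an extracellular catalytic domain (*Car12*, *Car14*). The products of *Car8*, *Car10* and *Car11*, called carbonic anhydrase-related proteins, lack catalytic activity and bind other proteins instead.

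The coding sequence around the first ligand pair shows which of the 9 genes keep the zinc site, and the results below are ordered by it. Each line gives 24 bases, 5′ to 3′ on the coding strand, of the principal transcript in GENCODE M21 (mm10). Capitals mark the codons aligned to histidine codons 94 and 96 of *Car2*.
Car2: atccagtttCACtttCACtggggc
Car3: cgccaattcCATcttCACtggggc
Car4: gtacagttgCACctgCACtggtca
Car7: aagcagctcCACttcCACtggggc
Car12: gagcagctgCACttgCACtggggg
Car14: gcccagctcCACctgCACtggggt
Car8: tatgaagttAGAtttCACtgggga
Car10: gaagaaatcCGGctaCACtttggg
Car11: agtgaactgCGCctgCTAtttgga

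The codons CAC and CAT encode histidine. *Car2*, *Car3*, *Car4*, *Car7*, *Car12* and *Car14* had a histidine codon at all 3 ligand positions, the last of which aligns to codon 119 of *Car2*. *Car8* had 2 of 3, with AGA, an arginine codon, at the first position. *Car10* had 1 of 3, and *Car11* had 0 of 3, with CGC, CTA and CAG in their place. Each stretch lies within a single coding exon. The *Car2* stretch is at chr3:14895060-14895083, that of *Car3* at chr3:14866841-14866864, that of *Car4* at chr11:84964158-84964181 and that of *Car7* at chr8:104547725-104547748, all on the plus strand. The *Car12* stretch is at chr9:66747638-66747661 on the plus strand and that of *Car14* at chr3:95900303-95900326 on the minus strand. Among the non-catalytic genes, the *Car8* stretch is at chr4:8221607-8221630 on the minus strand, that of *Car10* at chr11:93490597-93490620 and that of *Car11* at chr7:45702539-45702562, both on the plus strand.

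Values are in FPKM, fragments scaled for gene length and library depth. The depth that the smallest steps between values imply was 25123100 to 26809300 fragments in the cKO libraries and 20251900 to 24872600 in the Control libraries, so each cKO library was deeper than each Control library. *Psenen* was 3.56, 3.90 and 4.03 FPKM in cKO and 6.35, 6.86 and 7.32 FPKM in Control cortex. Genes that reached 0.5 FPKM in 3 or more libraries were tested, and a gene was called at a limma adjusted p under 0.05 over all 14147 genes tested. This gave 783 called genes (5.53%), of which 519 were higher (3.67%) and 264 lower (1.87%) in cKO cortex. With median-ratio scaling the split was 312 higher and 346 lower, with upper-quartile scaling 319 and 339, and with equal sums 909 and 244. Summed markers of excitatory neurons ranged from 317 to 411 FPKM in cKO and from 363 to 440 FPKM in Control libraries, those of inhibitory neurons from 699 to 765 and from 441 to 516 FPKM, and those of microglia from 16 to 23.1 and from 13.7 to 17 FPKM. Striatal markers, which bear on the dissection, summed to 98.3 to 138 FPKM in cKO and 54.4 to 100 FPKM in Control libraries.

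Of the 9 genes, *Car2* and *Car8* had the largest downward differences in cKO cortex. These are the 2 of 8 genes in the fit that passed its threshold, and *Car3* was under the filter in all libraries. The share called over all genes was 5.53% in either direction and 1.87% downward, and because the genes were listed with these values known nothing is read from the count. The libraries of the groups did not overlap in 3 of the 8 tested genes (*Car2*, *Car8* and *Car12*), against 29.7% of all tested genes. *Car12* met the filter through its cKO libraries, so nothing is read from this count either. The log2 differences of the 8 ran from -1.63 to 0.94 with a median of 0.01, and 4 lay above and 4 below 0, while the median over all tested genes was 0.07.

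**Figure D1:**
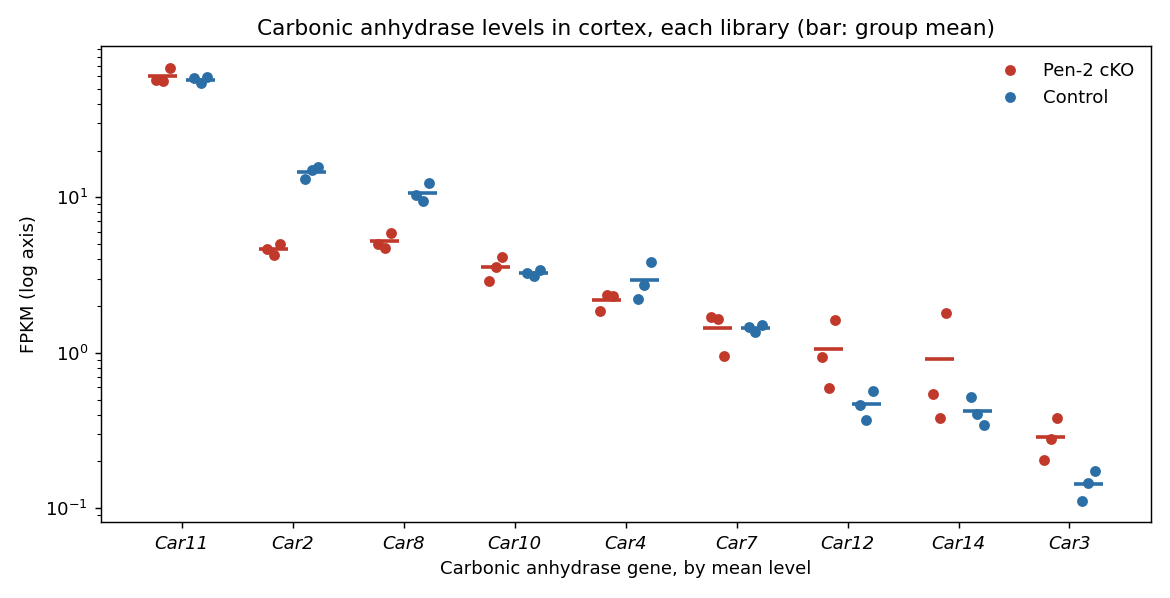
FPKM of the 9 carbonic anhydrase genes on a log axis, with 1 point per library, Pen-2 cKO left and Control right, and a bar at each group mean (n = 3 per group). *Car11* is the highest gene in both groups, near 60 FPKM, and *Car2* and *Car8* are the genes above 4 FPKM whose groups lie apart.

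*Car2* encodes the fast cytosolic isozyme, which in the mature brain is abundant in oligodendrocytes and in choroid plexus epithelium. It was 4.66, 4.27 and 4.99 FPKM in cKO libraries and 13.2, 15.0 and 15.6 FPKM in Control libraries (ENSMUSG00000027562, chromosome 3, 14886273 to 14900770). Every cKO value lay below every Control value, and the values within a group lay close together. The mean was 4.64 ± 0.358 FPKM in cKO and 14.6 ± 1.26 FPKM in Control cortex (SD, n = 3 each). The log2 difference was -1.63 (SE 0.09, 95% interval -1.85 to -1.41), the largest downward among the 8 genes, and over the settings it ranged from -1.70 to -1.46. In bulk tissue, fewer cells of a type and less RNA per cell cannot be told apart.

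Markers of the cell types that can carry *Car2* moved in opposite directions. The summed level of 11 oligodendrocyte lineage markers was 264, 341 and 359 FPKM in cKO and 91.4, 97.9 and 127 FPKM in Control libraries, with 10 of 11 called higher, so *Car2* was lower where these genes were higher. The 3 oligodendrocyte precursor markers, 1 of them called higher, summed to 83.4, 107 and 91.9 FPKM in cKO libraries. In Control libraries they summed to 33.1, 35.0 and 37.3 FPKM. Most of each sum was *Gpr17*, at 67.5, 88.7 and 73.1 FPKM in cKO and 19.2, 21.2 and 23.1 FPKM in Control libraries. *Pdgfra* and *Cspg4* differed less. *Pdgfra* was 11.6, 13.3 and 13.8 FPKM in cKO and 10.8, 10.9 and 10.4 FPKM in Control libraries. *Cspg4* ranged from 4.2 to 5.1 FPKM in cKO and from 2.9 to 3.8 FPKM in Control libraries. The 8 astrocyte markers summed to 37.8, 50.0 and 77.5 FPKM in cKO and 151, 194 and 208 FPKM in Control libraries, with 6 called lower. No marker of these lists was at 0, and the part of any of these cell types in the *Car2* difference was not tested. Red blood cells also carry carbonic anhydrases, and their 5 markers, with none called, summed to 115, 110 and 171 FPKM in cKO and 115, 151 and 219 FPKM in Control libraries.

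Outside the family, the tested genes whose 6 library values lay nearest to those of *Car2*, each relative to its own Control mean on the log2 scale, were *Abhd3*, *Glul* and *Kcnj16*. Their root mean square distances from *Car2* over the 6 libraries were 0.12, 0.12 and 0.14. *Abhd3* was 1.81, 1.83 and 2.03 FPKM in cKO and 5.69, 5.28 and 5.84 FPKM in Control libraries. *Kcnj16* was 0.584, 0.688 and 0.674 FPKM in cKO and 1.91, 1.95 and 2.23 FPKM in Control libraries, and *Glul* had a log2 difference of -1.62. These genes were picked for likeness, so their differences describe *Car2* and support nothing.

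*Car3*, *Car2*, *Car1* and *Car13* lie together within 259 kb of chromosome 3, 14641727 to 14900770, and did not share a pattern. *Car3*, a cytosolic isozyme of low activity known from muscle, liver and fat, was 0.203, 0.278 and 0.381 FPKM in cKO and 0.112, 0.146 and 0.173 FPKM in Control libraries. The groups did not overlap, with cKO higher, but at the length of its longest transcript these values stand for 8.57 to 17.1 fragments in cKO and 4.06 to 7.22 in Control libraries. The 5 markers of skeletal muscle and fat, 4 of them under 0.5 FPKM in every library, summed to 6.35 to 7.32 FPKM in cKO and 7.21 to 7.56 FPKM in Control cortex. *Car1*, the isozyme of red blood cells, was listed at 0 in 2 libraries of each group and was 0.104 and 0.0539 FPKM in cKO replicate 2 and Control replicate 2. *Car13*, another cytosolic isozyme, was 0.537, 0.367 and 2.01 FPKM in cKO and 0.603, 0.494 and 0.874 FPKM in Control libraries (log2 difference 0.21, SE 0.54, limma adjusted p = 0.862). Its value in cKO replicate 3 lay above all others, and without that library the log2 difference was -0.44, so its direction rests on 1 library.

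*Car4* encodes an enzyme anchored to the outer membrane face by a lipid, known from the capillary endothelium of the brain. It was 1.85, 2.34 and 2.33 FPKM in cKO and 2.21, 2.72 and 3.85 FPKM in Control libraries. The groups overlapped, since the lowest Control value lay below cKO replicates 2 and 3. The log2 difference was -0.38 (SE 0.21, 95% interval -0.87 to 0.10). The 6 endothelial markers summed to 59.1, 56.5 and 61.6 FPKM in cKO and 46.9, 48.0 and 53.1 FPKM in Control libraries, mostly *Cldn5*, with 1 called higher. In *Slc2a1* the groups overlapped, at 7.11, 7.83 and 7.92 FPKM in cKO and 7.87, 9.45 and 7.02 FPKM in Control libraries. In every other gene of this list each cKO value lay above each Control value. The part of endothelium in the *Car4* values was not tested.

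*Car7*, a cytosolic isozyme of neurons that supplies bicarbonate for currents through GABA receptors, was 1.70, 1.65 and 0.958 FPKM in cKO and 1.47, 1.37 and 1.51 FPKM in Control libraries. The cKO values lay on both sides of the Control values. The mean was 1.44 ± 0.414 FPKM in cKO and 1.45 ± 0.0723 FPKM in Control cortex (SD, n = 3 each), with a log2 difference of -0.05 (SE 0.22, 95% interval -0.57 to 0.46) that was 0.20 without cKO replicate 3.

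*Car12* and *Car14* encode transmembrane enzymes whose catalytic domain faces the extracellular space. *Car12* was 0.946, 0.590 and 1.62 FPKM in cKO and 0.460, 0.371 and 0.571 FPKM in Control libraries. Its groups lay apart by a narrow margin, with the lowest cKO value at 0.590 FPKM and the highest Control value at 0.571 FPKM. The mean was 1.05 ± 0.525 FPKM in cKO and 0.467 ± 0.0998 FPKM in Control cortex, and the log2 difference of 0.94 (SE 0.34, 95% interval 0.14 to 1.73), the largest upward among the 8 genes, was 0.60 without cKO replicate 3. All cKO libraries met the filter, and of the Control libraries only replicate 3 reached 0.5 FPKM. *Car12* thus entered the fit through the group where it was higher, and its difference is a description. *Car14* was 0.541, 0.380 and 1.82 FPKM in cKO and 0.523, 0.405 and 0.341 FPKM in Control libraries. Replicates 1 and 3 of the cKO group lay above all Control libraries, the first of them barely, while replicate 2 lay among them. The log2 difference was 0.69 (SE 0.49, 95% interval -0.46 to 1.84). *Car14* shares part of its range with *Aph1a*, a γ-secretase subunit gene on the opposite strand that was 7.26, 6.24 and 7.10 FPKM in cKO and 7.47, 6.17 and 6.55 FPKM in Control libraries. Whether counting used strand is not given in the sources used here, so fragments of the shared part may have been assigned to either gene.

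**Figure D2:**
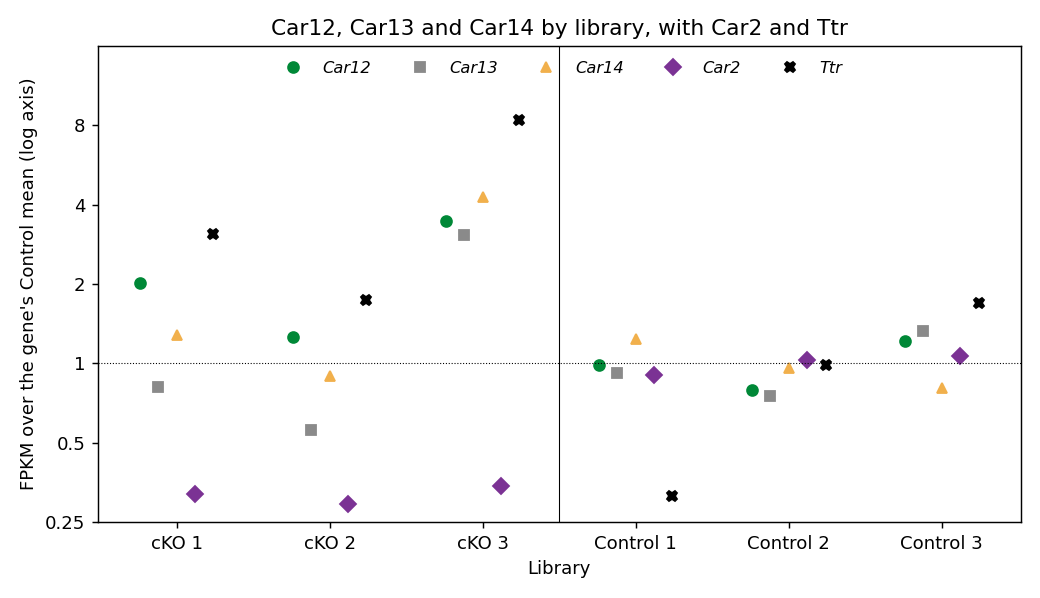
Values of *Car12*, *Car13*, *Car14*, *Car2* and the choroid plexus gene *Ttr* in each library, divided by the gene's mean in the Control libraries, on a log axis. *Car12*, *Car13*, *Car14* and *Ttr* have their highest point in cKO replicate 3, while the 3 cKO points of *Car2* lie together below 0.5.

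Markers of the choroid plexus, which carries several carbonic anhydrases, were also highest in cKO replicate 3. The 7 genes summed to 331, 186 and 890 FPKM in cKO and 35.9, 106 and 182 FPKM in Control libraries, mostly *Ttr*, which was 324, 182 and 877 FPKM in cKO and 33.1, 104 and 178 FPKM in Control libraries. None of the 7 was at 0 and none of the 4 tested was called. The other choroid genes lay far below *Ttr*. The highest of them was *Aqp1*, at 3.6, 2.4 and 6.3 FPKM in cKO and 1.2, 1.0 and 1.7 FPKM in Control libraries. *Folr1* was 0.536, 0.281 and 1.45 FPKM in cKO and 0.276, 0.278 and 0.302 FPKM in Control libraries. The 5 meningeal fibroblast markers, 3 of them called higher, summed to 60.3, 43.2 and 82.4 FPKM in cKO and 22.1, 20.4 and 23.9 FPKM in Control libraries. The part of either tissue in the values of *Car12* and *Car14* was not tested. The tested genes nearest to *Car12* over the 6 libraries were *Foxc1*, *Emilin1* and *Gjb2*, at root mean square distances of 0.13, 0.14 and 0.14 on the log2 scale. *Foxc1*, for example, was 1.57, 1.30 and 2.75 FPKM in cKO and 0.854, 0.774 and 1.19 FPKM in Control libraries.

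The 6 genes with a complete set of ligand histidine codons summed to 9.90, 9.51 and 12.1 FPKM in cKO and 17.9, 20.0 and 22.0 FPKM in Control libraries. *Car2* made up 44.4% ± 2.95 of that sum in cKO and 73.0% ± 2.10 in Control cortex (SD, n = 3 each). The other 5 genes together were at 5.24, 5.24 and 7.11 FPKM in cKO and 4.78, 5.01 and 6.44 FPKM in Control libraries, which overlap.

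**Figure D3:**
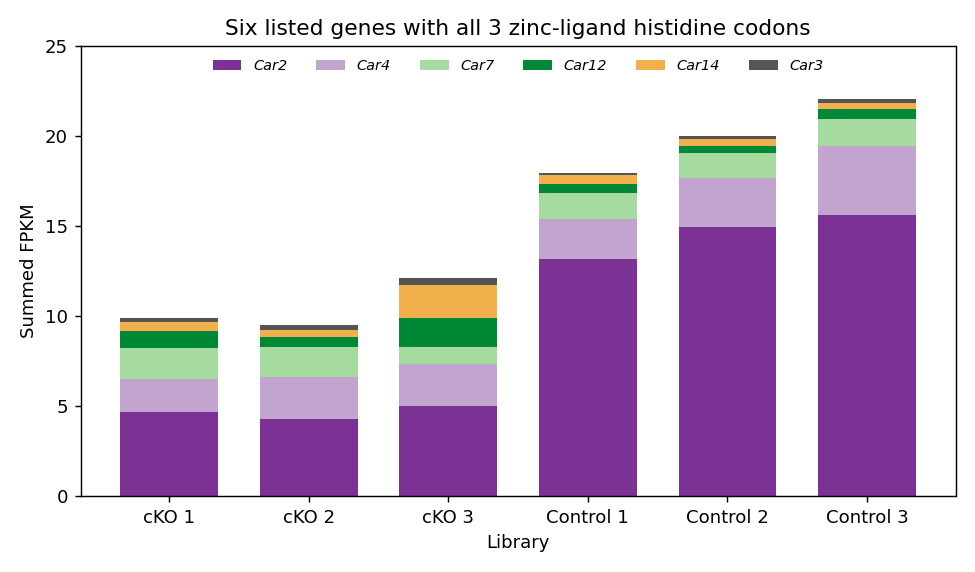
Stacked FPKM of the 6 genes with histidine codons at all 3 ligand positions, 1 bar per library, Pen-2 cKO left and Control right. The *Car2* segment, at 4.27 to 4.99 FPKM in cKO and 13.2 to 15.6 FPKM in Control libraries, sets the difference in height.

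Among the non-catalytic genes, *Car8* lay lower in every cKO library, while the groups overlapped in *Car10* and *Car11*. *Car8* encodes a cytosolic protein that binds the IP3 receptor type 1 and lowers its affinity for its ligand, and is best known from Purkinje cells of the cerebellum. It was 5.03, 4.75 and 5.88 FPKM in cKO and 10.3, 9.42 and 12.3 FPKM in Control libraries (ENSMUSG00000041261, chromosome 4, 8143362 to 8239041). Every cKO value lay below every Control value. The mean was 5.22 ± 0.590 FPKM in cKO and 10.7 ± 1.49 FPKM in Control cortex, with a log2 difference of -1.01 (SE 0.12, 95% interval -1.31 to -0.72) that ranged from -1.10 to -0.90 over the settings. With the single annotated transcript of 3853 bases, the values stand for 478 to 608 fragments in cKO and 735 to 1180 in Control libraries. Cerebellar markers were low: the Purkinje cell gene *Pcp2* was listed at 0 in all 6 libraries, and 4 cerebellar markers summed to 1.81 to 5.93 FPKM in cKO and 2.38 to 4.10 FPKM in Control libraries. The binding partner *Itpr1* was 4.46, 4.08 and 4.57 FPKM in cKO and 4.52, 4.62 and 4.13 FPKM in Control libraries (log2 difference -0.02, SE 0.09, limma adjusted p = 0.939).

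*Car10* and *Car11* encode secreted proteins that act at synapses. *Car11* was the highest of the 9 genes in both groups, at 57.2, 56.0 and 68.3 FPKM in cKO and 58.2, 54.0 and 59.0 FPKM in Control libraries. The groups overlapped, and the log2 difference was 0.08 (SE 0.08, 95% interval -0.12 to 0.28). *Car10* was 2.90, 3.58 and 4.13 FPKM in cKO and 3.24, 3.10 and 3.41 FPKM in Control libraries. The lowest and the highest of the 6 values were both cKO, and the log2 difference was 0.10 (SE 0.14, 95% interval -0.22 to 0.43). Both differences were -0.01 without cKO replicate 3. *Car11* made up 75.9% ± 0.352 of the summed FPKM of the 9 genes in cKO and 62.8% ± 1.98 in Control cortex, while its own level overlapped between groups.

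**Figure D4:**
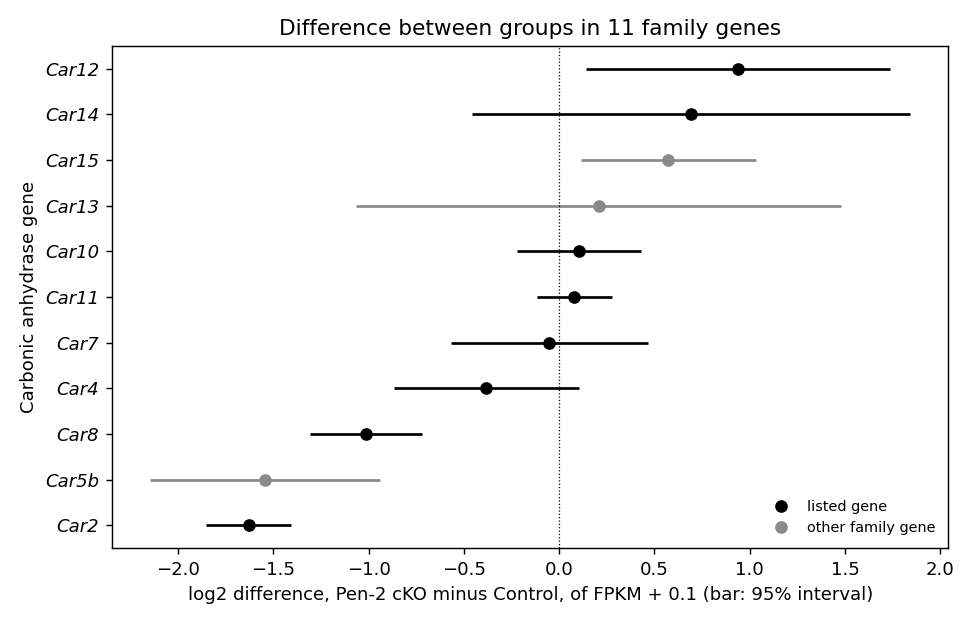
Log2 difference of FPKM + 0.1, Pen-2 cKO minus Control, with its 95% interval from limma, for the 8 listed genes (black) and 3 other family genes (grey) in the fit. *Car2*, *Car5b* and *Car8* lie at or below -1.01, *Car5b* having entered through its Control libraries alone, and the intervals of *Car13* and *Car14* are the widest.

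The order of the mean levels differed between groups at a single place. In cKO cortex *Car11* was followed by *Car8* (5.22 FPKM) and *Car2* (4.64 FPKM), whose libraries overlapped, and then by *Car10*, *Car4*, *Car7*, *Car12*, *Car14* and *Car3*. In Control cortex *Car2* (14.6 FPKM) stood above *Car8* (10.7 FPKM) with no overlap, and the other 7 genes had the same rank. Neighbours whose libraries overlapped were *Car7* and *Car12*, *Car12* and *Car14* and, through a single library of *Car14*, *Car14* and *Car3* in cKO cortex, and *Car10* and *Car4* and *Car12* and *Car14* in Control cortex.

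Of the 7 family genes outside the list, 3 passed the filter, *Car5b*, *Car13* and *Car15*. *Car5b*, a mitochondrial isozyme, was 0.109, 0.116 and 0.221 FPKM in cKO and 0.603, 0.577 and 0.652 FPKM in Control libraries (ENSMUSG00000031373, chromosome X, 163976822 to 164027997). The groups lay well apart, with a log2 difference of -1.54 (SE 0.26). It passed the filter through the 3 Control libraries alone and so had to differ, and this difference is a description. At 3157 to 3436 bases of transcript, its values stand for 8.62 to 20.3 fragments in cKO and 36.9 to 55.8 in Control libraries. *Car15*, which is anchored to the membrane by a lipid, was 1.71, 2.30 and 1.54 FPKM in cKO and 1.33, 1.31 and 0.971 FPKM in Control libraries, with a log2 difference of 0.57 (SE 0.20, limma adjusted p = 0.141), and shares part of its range with *Gm20518*. The authors' deposited group values for *Car15* ran the other way, at 1.47 FPKM in cKO and 1.65 FPKM in Control cortex. Of the genes not tested, *Car6* was listed at 0 throughout, *Car5a* stayed at or below 0.223 FPKM and *Car9*, a hypoxia-induced enzyme, at or below 0.430 FPKM.

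Of 25 genes of bicarbonate, proton and lactate transport, 16 were tested, with 2 lower and 1 higher in cKO cortex, against 1.87% of all tested genes lower and 3.67% higher. The list was made with earlier results of these data known, so nothing is read from this count. *Slc4a4*, the electrogenic sodium bicarbonate cotransporter, fell to 3.13, 3.07 and 5.01 FPKM in cKO, against 10.3, 10.2 and 10.7 FPKM in Control libraries (log2 difference -1.49, SE 0.18, limma adjusted p = 0.00550). *Slc9a3r1*, a scaffold protein first found with a sodium proton exchanger, fell to 5.93, 4.64 and 9.80 FPKM in cKO, against 18.0, 17.7 and 19.7 FPKM in Control libraries (log2 difference -1.50, SE 0.25, limma adjusted p = 0.0213). *Slc16a3*, a lactate and proton cotransporter of glycolytic cells, rose to 1.64, 1.24 and 1.35 FPKM in cKO, against 0.465, 0.265 and 0.606 FPKM in Control libraries (log2 difference 1.51, SE 0.27, limma adjusted p = 0.0228). Its 3 cKO libraries alone met the filter, and of the Control libraries only replicate 3 reached 0.5 FPKM, so this difference is a description. The libraries of the groups did not overlap in 6 of the 16 tested genes, these 3 among them, against 29.7% of all tested genes. *Hvcn1*, another of the 6, met the filter through its 3 cKO libraries alone and so had to lie apart. Nothing is read from this count. *Slc9a3r1* was not called without Control replicate 1, 2 or 3 or without cKO replicate 1, where its log2 difference was -1.52, -1.53, -1.45 and -1.44. *Slc16a3* was not called without Control replicate 1 or 2 or without cKO replicate 1 or 2, at 1.56, 1.25, 1.40 and 1.59, and with a pseudocount of 1 FPKM its difference was 0.74. The list's median log2 difference was 0.09, against 0.07 over all tested genes, and 13 of the 16 were not called. Among these, the neuronal transporter *Slc4a10* was 17, 21.7 and 15.3 FPKM in cKO and 15.9, 18.5 and 21.0 FPKM in Control libraries.

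Of 11 binding partners and receptors with a carbonic anhydrase-like domain, all tested, *Ptprz1* fell and no other was called, against 5.53% of all tested genes called. This list too was made with earlier results known, and nothing is read from its count. *Ptprz1* encodes a receptor phosphatase of glia and their precursors whose extracellular end resembles a carbonic anhydrase and binds contactins. It was 12, 12.1 and 14.5 FPKM in cKO and 23.8, 21.1 and 23.2 FPKM in Control libraries (log2 difference -0.82, SE 0.09, limma adjusted p = 0.00393). Its paralog *Ptprg* was 8.51, 6.40 and 7.82 FPKM in cKO and 5.99, 6.0 and 5.94 FPKM in Control libraries (log2 difference 0.33, SE 0.11, limma adjusted p = 0.139). The median of the list was -0.16.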

How the data were processed

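The deposited per-library values are FPKM made by the authors, per the file headers, with decimals throughout. The submitters' processing notes name mm10, while aligner, counter and annotation are not stated. The authors' deposited q-values come without a stated test. FPKM are not counts, so limma 3.58.1 in R 4.3.3 (mean-variance trend, robust variances, group as the only term) was run on log2(FPKM + 0.1) for genes reaching 0.5 FPKM in 3 or more libraries, with Benjamini-Hochberg adjustment over all of them. That scale understates the change of low genes. The steps were tested on simulated data.

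The members, gene lists and tests were chosen with earlier results of these data known. Named outside the 9 genes were all other family genes and, per partner list, up to 4 called genes and known binding partners, plus the 3 genes nearest to the members with the largest difference each way. *Psenen* is the targeted gene. *Ptprg*, *Slc4a10*, *Hvcn1*, *Aph1a*, *Gm20518*, *Ttr*, *Aqp1*, *Pcp2*, *Folr1*, *Gpr17*, *Pdgfra*, *Cspg4*, *Cldn5* and *Slc2a1* lie outside this rule and were named after their values were seen. Depth came from the smallest value steps of single-transcript genes, of whose low values 68.8% to 83.0% lay within 0.01 of a whole fragment. Fragment numbers for the family are estimates from it and cover counting error only. Ranges of single genes are those of the deposited table. The codon stretches, the chromosome 3 span and the shared ranges of genes come from GENCODE M21. All coordinates are counted from 1. Codons were aligned with Biopython 1.88 on GENCODE M21 transcripts. The alternatives varied filter, pseudocount, scaling, variance model, replicate block and each library left out.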

Additional observations from a re-analysis of the deposited data

How the results depend on the processing

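The number of the 9 genes past the threshold was 2 under every alternative run, *Car2* and *Car8* each time, which describes genes listed with their values known. *Car7*, *Car10* and *Car11* changed sign without cKO replicate 3. Same-numbered libraries did not deviate together (correlations of their deviations 0.06, 0.01 and 0.10), so the numbers were not used as pairs. Under the replicate block the counts were 2 of the 9 genes, 1 other family gene, 3 acid-base genes and 1 binding partner, as without it. Of the other family genes, 0 were called with a filter at 1 FPKM, which removes *Car5b*, and 0 to 1 with 1 library left out, since *Car5b* passed the filter only with all Control libraries and was not called without cKO replicate 1 or 2. Of the acid-base genes, 1 to 3 were called with 1 library left out. Over all genes, the 783 calls became 499 with no filter on low values, 456 under the replicate block and 210 to 813 with 1 library left out. *Car12* was tested in 16 and *Car14* in 13 of the 17 settings, because of the filter. The values of *Car3*, *Car5b*, *Car12* and *Car14*, all under 2 FPKM, are limited by depth.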

Other observations

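In the authors' deposited table, 4 of the 16 family genes had a q-value under 0.05: *Car2* (1.44e-14), *Car8* (1.31e-06), *Car5b* (0.0156) and *Car12* (0.0226). The authors' deposited group values for *Car12* were 1.30 FPKM in cKO and 0.509 FPKM in Control cortex. For *Car1*, *Car9* and *Car15* the deposited group values differed in the opposite direction to the means of the per-library values. The test behind the authors' deposited q-values is not stated, and for the listed genes they are no independent support.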
